A study of Mus musculus with 6 samples.

Results

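The genes described here are 9 rows of the count files: Pcp4l1, B4galt3, Arhgap30, Usf1, F11r, Alyref2, Itln1, AI607873 and Olfr433, of 23420 gene symbols in all. They lie in a 4-Mb stretch of distal mouse chromosome 1 (mm10), which begins at the Fc receptor genes, continues over the SLAM receptor and PYHIN genes and reaches past the formin gene Fmn2. They were chosen by their fold change between the groups in these same libraries, some because they differed and some because they did not, so their own differences, intervals and calls are given as a description and support nothing. The rule places them outside the PYHIN, SLAM and Fc receptor families. For AI607873 the annotation goes against that: RefSeq and GENCODE list this symbol as a synonym of Ifi207, with Pyhin-A as another, so it is a PYHIN gene and is described as one.

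RNA was sequenced from freshly isolated dendritic cells of the spleen in 3 libraries of the genotype TBK1-DKO and 3 of wild type (WT). All came from C57BL/6 mice, whose age is 10 weeks in the sample characteristics and 8 weeks in the protocol. TBK1 is a kinase of innate immunity, active downstream of nucleic acid sensing, that switches on type I interferon genes. The sources used here do not spell out DKO, and they do not give the alleles, the cells in which a gene was deleted, how the cells were sorted, or whether the libraries of a group are of different mice. The p-values below therefore measure the spread between these libraries, which may be technical.

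The libraries held 45018389 to 47349648 reads in genes in TBK1-DKO and 31077585 to 36145508 in WT. Tbk1 itself had 83.7, 78.8 and 83.8 counts per 1000000 gene reads (CPM) in TBK1-DKO 1, 2 and 3 and 91.7, 80.5 and 83.4 CPM in WT 1, 2 and 3, a log2 fold change of -0.05 (95% interval -0.18 to 0.09). Reads over the whole gene do not show whether a part of it was deleted. Libraries TBK1-DKO 2 and WT 1 stood apart from their groups. The SD over genes of the log2 difference was 0.223 and 0.230 for TBK1-DKO 2 against TBK1-DKO 1 and 3, and 0.101 between TBK1-DKO 1 and 3. It was 0.177 and 0.193 for WT 1 against WT 2 and 3, and 0.120 between WT 2 and 3. All of 16 dendritic cell markers passed the filter on low counts, with none at 0. With an adjusted p under 0.05 by edgeR, 4 were higher in TBK1-DKO (Esam at 0.75 on the log2 scale). At that threshold 5 were lower (Clec9a at -0.74, Siglech at -0.71 and Xcr1 at -0.48). Of all genes tested, 13.7% were higher and 9.90% lower at that threshold. Summed levels of the markers were 10342 to 11690 CPM in TBK1-DKO and 10824 to 12029 CPM in WT.

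The distal part of mouse chromosome 1 holds several families of immune genes in tandem. PYHIN proteins bind DNA or regulate transcription, many of them under interferon, while SLAM receptors adjust contacts between leukocytes and Fc receptors bind antibodies. The genes between these families have unrelated roles. F11r encodes JAM-A, an adhesion protein of tight junctions that is also found on leukocytes and platelets and takes part in dendritic cell migration. Itln1 encodes intelectin-1, a secreted lectin that binds sugars of microbes and is best known from the gut. Pcp4l1 encodes a small protein related to the calmodulin-binding protein PCP4, and Olfr433 an odorant receptor. Usf1 encodes a transcription factor that binds the E-box letters CACGTG, Arhgap30 a GTPase-activating protein, B4galt3 a galactosyltransferase of the Golgi, and Alyref2 a mouse relative of the mRNA export adaptor ALYREF.

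Among the 9 genes, Itln1, Pcp4l1 and Olfr433 were higher in TBK1-DKO, F11r, AI607873 and Alyref2 were lower, and Usf1, Arhgap30 and B4galt3 differed by at most 0.04 on the log2 scale. All 9 passed the filter on low counts, although Pcp4l1 had only 11 to 17 reads in the WT libraries, close to the minimum of 10. In the test over all 14388 genes that passed (edgeR's quasi-likelihood test, Benjamini-Hochberg adjusted p under 0.05, hereafter called), 6 of the 9 were called. Over all genes tested, 23.6% were called, 13.7% as higher in TBK1-DKO and 9.90% as lower. The groups did not overlap for the same 6 genes, against 41.0% of all genes tested. A called difference of at least 2-fold was found for 4 of the 9, against 3.18% of all genes tested. Nothing is read from these counts, because the genes were selected on this contrast. In bulk RNA a smaller number of cells of a type and less RNA per cell cannot be told apart, which holds for every difference below.

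**Figure D1:**
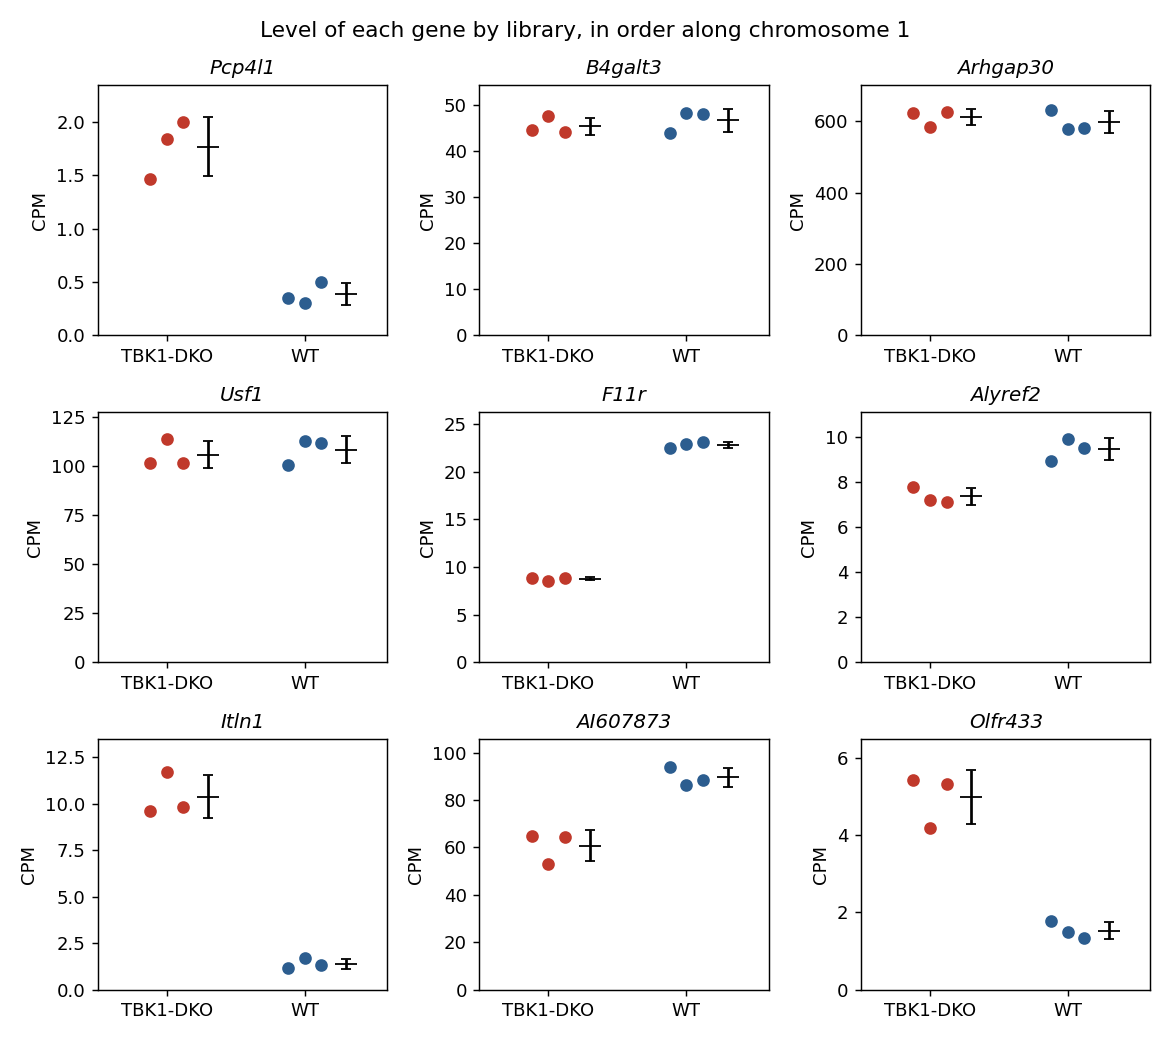
Counts per 1000000 gene reads (CPM, y axis, from 0) of each of the 9 genes in the 3 TBK1-DKO (red) and 3 WT libraries (blue), with the mean and SD in black. The groups are separate for Pcp4l1, F11r, Alyref2, Itln1, AI607873 and Olfr433 and overlap for B4galt3, Arhgap30 and Usf1.

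F11r, the adhesion gene, lies on the plus strand at chr1:171437535-171464603 (GRCm38, the assembly of mm10) and has 10 exons in its longest transcript. It had 8.89, 8.59 and 8.82 CPM in TBK1-DKO 1, 2 and 3, against 22.5, 22.9 and 23.1 CPM in WT 1, 2 and 3. Every TBK1-DKO library was far below every WT library, and the spread within each group was small, with means of 8.77 ± 0.157 CPM in TBK1-DKO and 22.8 ± 0.332 CPM in WT (SD, n = 3 each). These values rest on 393 to 421 reads per TBK1-DKO library and 699 to 828 per WT library. The log2 fold change was -1.38 (SE 0.07, 95% interval -1.53 to -1.22) and was -1.39 without TBK1-DKO 2 and WT 1. Only 0.868% of its 50-base stretches occur in transcripts of other genes.

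Itln1, the lectin gene, is the second tested gene after F11r and lies on the minus strand at chr1:171518122-171535294 with 8 exons. It had 9.59, 11.7 and 9.82 CPM in TBK1-DKO 1, 2 and 3, against 1.19, 1.69 and 1.30 CPM in WT 1, 2 and 3. The groups were wide apart, and the library with the highest level in TBK1-DKO was TBK1-DKO 2, one of the libraries that stood apart. The means were 10.4 ± 1.13 CPM in TBK1-DKO and 1.39 ± 0.26 CPM in WT, from 442 to 533 reads per TBK1-DKO library and 37 to 61 per WT library. The log2 fold change was 2.88 (SE 0.15, 95% interval 2.56 to 3.21) and 2.67 without TBK1-DKO 2 and WT 1. Mouse strains differ in their number of intelectin genes, and counts on the reference of a single strain do not separate such copies. In the annotation used here, 0.972% of the 50-base stretches of Itln1 occur in another gene, Gm9765.

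Alyref2, an mRNA export gene made of 1 exon at chr1:171503478-171504750 on the plus strand, stands between F11r and Itln1. It had 7.81, 7.21 and 7.13 CPM in TBK1-DKO 1, 2 and 3, against 8.95, 9.93 and 9.54 CPM in WT 1, 2 and 3. The groups did not overlap, but the gap between them was only a little wider than the range within each. The log2 fold change was -0.36 (SE 0.09, 95% interval -0.55 to -0.16), and it was no longer called when TBK1-DKO 3 or WT 2 was left out. Of its exon bases, 49.8% overlap an antisense gene, B930036N10Rik, and since the strand setting of the counting is not given, reads of the pair cannot be told apart. From the start of F11r to the end of Itln1, 97.8 kb thus hold a gene lower in TBK1-DKO, one slightly lower and one much higher.

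The starts of these neighbours also differ in their letters. The windows below run from 250 bases before to 50 bases after the start annotated by RefSeq (GRCm38.p6), 5′ to 3′ on the gene's strand, for F11r (chr1:171437311-171437610, plus), Itln1 (chr1:171535245-171535544, minus), Usf1, upstream of both, at its first annotated start (chr1:171411063-171411362, plus), and AI607873, the PYHIN gene (chr1:173741760-173742059, minus). They are shown because F11r and Itln1 differ in opposite directions within a short distance, Usf1 did not differ beyond its spread, and AI607873 carries a letter pattern of interferon-responsive promoters. Capitals mark matches, on either strand, to any of 7 patterns searched.
F11r: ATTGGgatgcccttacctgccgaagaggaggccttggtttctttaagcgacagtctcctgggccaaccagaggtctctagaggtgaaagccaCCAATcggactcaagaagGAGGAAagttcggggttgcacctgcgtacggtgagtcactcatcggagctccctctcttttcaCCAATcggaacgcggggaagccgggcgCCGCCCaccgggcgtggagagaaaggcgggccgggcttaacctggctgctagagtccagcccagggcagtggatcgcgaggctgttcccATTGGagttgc
Itln1: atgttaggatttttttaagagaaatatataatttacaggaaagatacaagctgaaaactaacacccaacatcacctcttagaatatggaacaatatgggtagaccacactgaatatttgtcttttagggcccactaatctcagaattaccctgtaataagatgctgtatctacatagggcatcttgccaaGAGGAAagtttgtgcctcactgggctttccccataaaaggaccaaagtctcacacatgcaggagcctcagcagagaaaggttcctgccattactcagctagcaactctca
Usf1: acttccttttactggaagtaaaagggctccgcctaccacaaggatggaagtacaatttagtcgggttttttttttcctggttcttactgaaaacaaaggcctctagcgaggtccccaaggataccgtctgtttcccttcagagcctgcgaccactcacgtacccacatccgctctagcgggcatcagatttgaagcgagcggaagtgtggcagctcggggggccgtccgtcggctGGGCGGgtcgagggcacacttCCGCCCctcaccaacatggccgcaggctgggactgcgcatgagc
AI607873: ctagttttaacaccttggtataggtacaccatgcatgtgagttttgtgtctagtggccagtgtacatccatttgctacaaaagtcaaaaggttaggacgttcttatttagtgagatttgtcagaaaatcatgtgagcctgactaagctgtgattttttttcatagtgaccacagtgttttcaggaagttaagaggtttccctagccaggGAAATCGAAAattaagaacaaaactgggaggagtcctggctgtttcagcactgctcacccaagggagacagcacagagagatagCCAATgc

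The patterns were CACGTG (bound by USF factors, 7.15% of the 32851 RefSeq promoter windows), the core of the interferon-stimulated response element (GAAA, any 2 bases, GAAA, 3.44%), TTCNNNGAA (STAT factors, 8.3%), GAGGAA (ETS factors such as PU.1, 28.3%), CCAAT (37.4%), GGGCGG (GC box, 35.7%) and TATAAA (13.6%). The F11r window holds 4 CCAAT, 1 GAGGAA and 1 GGGCGG match and 19 CpG dinucleotides. The Itln1 window holds no CpG, against a median of 7 over all windows, and its single match is GAGGAA, 60 bases before the start. The Usf1 window holds 2 GGGCGG matches and 19 CpG. The AI607873 window has 2 CpG and a match to the interferon-stimulated response element core 41 bases before the start, the only one among the windows of the 9 genes. None of these windows holds CACGTG or TTCNNNGAA. A match is a description of the letters and does not show that a factor binds there.

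On the side of the Fc receptors, Pcp4l1 (chr1:171173262-171196268, minus strand) was also higher in TBK1-DKO. It had 1.46, 1.84 and 2 CPM in TBK1-DKO 1, 2 and 3, against 0.354, 0.304 and 0.504 CPM in WT 1, 2 and 3. All TBK1-DKO libraries were above all WT libraries, at a low level in both groups, with 69, 84 and 90 reads in TBK1-DKO and 11, 11 and 17 reads in WT. The log2 fold change was 2.18 (SE 0.24, 95% interval 1.64 to 2.73), the widest interval of the 9. None of its 50-base stretches occurs in another gene. Its paralog Pcp4, on another chromosome, fell to 0.955 ± 0.146 CPM in TBK1-DKO, against 1.61 ± 0.238 CPM in WT (log2 fold change -0.74, adjusted p = 0.018 by edgeR).

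Olfr433 (chr1:174040705-174044411, plus strand) follows directly on the last PYHIN gene of the cluster, Ifi205. It had 5.43, 4.18 and 5.33 CPM in TBK1-DKO 1, 2 and 3, against 1.77, 1.49 and 1.33 CPM in WT 1, 2 and 3. The groups did not overlap, and TBK1-DKO 2 was the lowest of its group. The log2 fold change was 1.71 (SE 0.16, 95% interval 1.36 to 2.06) and 1.91 without TBK1-DKO 2 and WT 1. Few odorant receptor genes had reads in these cells: of 1122 Olfr symbols, 120 had any read and 12 passed the filter, Olfr433 among them. The next gene, Olfr432, 4.79 kb further on, rose as well, with 1.44, 1.09 and 1.78 CPM in TBK1-DKO and 0.225, 0.277 and 0.148 CPM in WT (log2 fold change 2.71, adjusted p = 1.6e-04 by edgeR). The genes share 4.58% of the 50-base stretches of Olfr433. GENCODE gives Olfr433 exons of 3707 bases where the RefSeq model spans 1004 bases, and which model was used for counting is not given in the sources used here.

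AI607873, now named Ifi207 (chr1:173723427-173741747, minus strand), lies within the PYHIN cluster, 2.19 Mb beyond Itln1. It had 64.9, 53.1 and 64.4 CPM in TBK1-DKO 1, 2 and 3, against 94.0, 86.3 and 88.3 CPM in WT 1, 2 and 3. Every TBK1-DKO library was below every WT library, and TBK1-DKO 2 was the lowest of all. The log2 fold change was -0.55 (SE 0.08, 95% interval -0.73 to -0.38) and -0.45 without TBK1-DKO 2 and WT 1. It shares 7.29% of its 50-base stretches with relatives, most with Ifi204, but 0.79% of its 100-base stretches. Its neighbours went separate ways: Pydc3 fell to 15.8 ± 1.49 CPM in TBK1-DKO, against 62.6 ± 0.924 CPM in WT (log2 fold change -1.98, adjusted p = 2.7e-07 by edgeR), whereas Ifi204 had a log2 fold change of -0.01 (adjusted p = 0.94).

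The 3 genes that differed little lie close together, before F11r. Arhgap30 (chr1:171388954-171410298, plus strand), the gene of the GTPase-activating protein, had 624, 585 and 626 CPM in TBK1-DKO 1, 2 and 3, against 633, 579 and 580 CPM in WT 1, 2 and 3. The groups overlapped, with a log2 fold change of 0.04 (95% interval -0.10 to 0.18). Usf1 (chr1:171411313-171419142, plus strand), 1.01 kb after Arhgap30, had 102, 114 and 102 CPM in TBK1-DKO and 101, 113 and 112 CPM in WT. These also overlapped (log2 fold change -0.03, interval -0.19 to 0.13). B4galt3 (chr1:171270328-171276896, plus strand), the galactosyltransferase gene, had 44.6, 47.6 and 44.1 CPM in TBK1-DKO and 43.9, 48.3 and 48.0 CPM in WT. Its log2 fold change was -0.04 (interval -0.18 to 0.11), and the groups overlapped. Without TBK1-DKO 2 and WT 1, the values were 0.09 for Arhgap30, -0.16 for Usf1 and -0.13 for B4galt3, and all 9 genes were then called, as were 47.7% of all genes tested. Usf1 shares 13.7% of its 50-base stretches with Gm12345, and B4galt3 overlaps Ppox on the other strand over 791 exon bases.

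Per kilobase of exon (RPKM), Arhgap30 was highest in both groups, with 71.2 ± 2.69 in TBK1-DKO and 69.5 ± 3.61 in WT. Usf1 came next with 37.8 ± 2.4 RPKM in TBK1-DKO and 38.8 ± 2.38 RPKM in WT, followed by AI607873 with 17.8 ± 1.96 RPKM in TBK1-DKO and 26.2 ± 1.17 RPKM in WT. The order below these differed between the groups. In TBK1-DKO, Itln1 (9.07 ± 0.991 RPKM) and B4galt3 (8.31 ± 0.346 RPKM) overlapped and were followed by Alyref2 (5.8 ± 0.293 RPKM) and F11r (3.29 ± 0.0588 RPKM). In WT, F11r (8.58 ± 0.124 RPKM) and B4galt3 (8.55 ± 0.455 RPKM) overlapped and were followed by Alyref2 (7.44 ± 0.39 RPKM) and Itln1 (1.22 ± 0.228 RPKM). By these lengths Olfr433 and Pcp4l1 were lowest, at 1.34 ± 0.188 and 1.12 ± 0.176 RPKM in TBK1-DKO, where their libraries overlapped. In WT they had 0.413 ± 0.0595 and 0.246 ± 0.0659 RPKM. The place of Olfr433 is uncertain, because 3707 exon bases were used and the RefSeq model spans 1004 bases. On the shorter length its RPKM would be higher and its place could change. The place of B4galt3 depends on the length used: with the longest transcript in place of all exons it had 13.9 RPKM in TBK1-DKO and 14.3 RPKM in WT, above Itln1 (9.07 RPKM) in TBK1-DKO and above F11r (9.07 RPKM) in WT. Arhgap30 then had 122 RPKM in TBK1-DKO and 119 RPKM in WT and remained the highest.

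**Figure D2:**
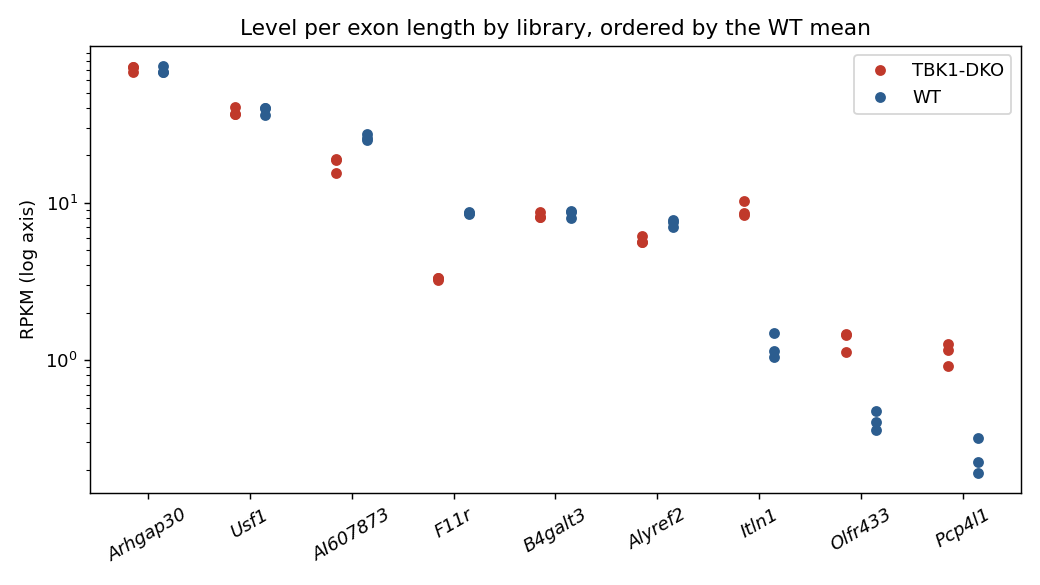
Reads per kilobase of exon per 1000000 gene reads (y axis, log scale) of the 9 genes in each TBK1-DKO (red, left) and WT library (blue, right), ordered by the WT mean. Itln1 averaged 9.07 in TBK1-DKO and 1.22 in WT, and F11r averaged 3.29 in TBK1-DKO and 8.58 in WT.

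How far the differences reach along the chromosome was read from the other genes of the region, which were taken by position alone, although an earlier look at these data had already shown changes here. Between B4galt3 and F11r, without Arhgap30 and Usf1, which were chosen for their small differences, 9 further genes passed the filter and 1 was called. Of all genes tested, 23.6% were called. The called gene was Ppox, a gene of haem synthesis that overlaps B4galt3 (98.1 ± 2.21 CPM in TBK1-DKO and 79.6 ± 3.19 CPM in WT, log2 fold change 0.31, adjusted p = 0.0033 by edgeR). On the other side of B4galt3, the Fc receptor gene Fcer1g fell by 0.67 on the log2 scale (adjusted p = 1.1e-04). Tstd1, which ends 17.2 kb before F11r, had a log2 fold change of 0.30 (adjusted p = 0.12). On the far side of Itln1, 23.9 kb away, the SLAM receptor gene Cd244 fell to 71.3 ± 7.69 CPM in TBK1-DKO, against 92.7 ± 12.9 CPM in WT (log2 fold change -0.37, adjusted p = 0.023). Pcp4l1 stood between Sdhc and Tomm40l. Sdhc, 22.7 kb away, had a log2 fold change of -0.09 (adjusted p = 0.38 by edgeR). Tomm40l, 19.7 kb away, was called and fell by 0.34 on the log2 scale (adjusted p = 0.025 by edgeR). The next tested gene beyond Tomm40l was Fcer1g, given above. The nearest tested genes outside the stretch from F11r to Itln1, and those on both sides of Pcp4l1, thus had log2 fold changes between -0.37 and 0.30.

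**Figure D3:**
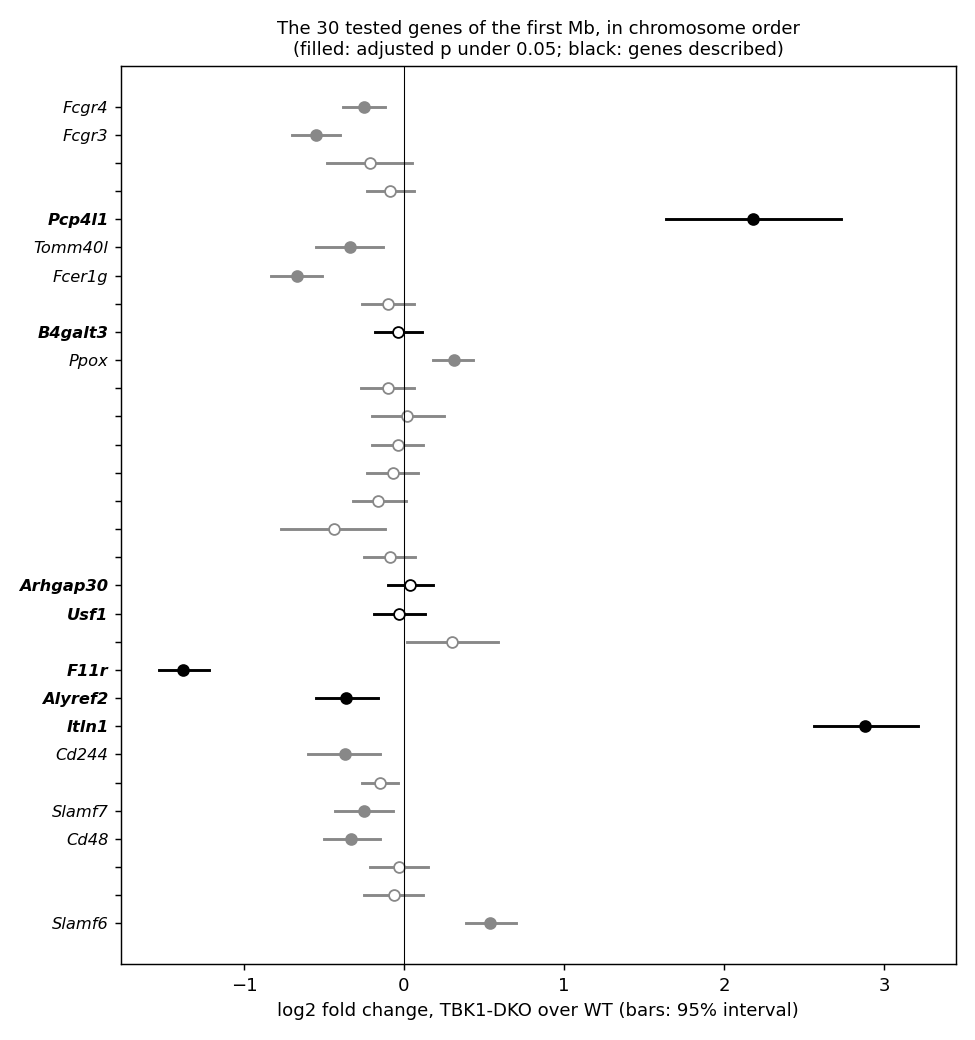
Log2 fold change of TBK1-DKO over WT (x axis) with its 95% interval for the 30 tested genes in the first Mb of the stretch, in chromosome order from top to bottom, filled where the adjusted p was under 0.05 and named where called or among the 9. Pcp4l1, F11r and Itln1 lie past 1 in size, while every other gene shown lies within 1 of zero.

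Outside the 9 genes and the 3 families, 35 genes of the 4-Mb stretch passed the filter and 13 were called, 5 higher and 8 lower in TBK1-DKO (37.1%, against 23.6% of all genes tested). By stretch, 2 of 13 were called in the first Mb, 7 of 17 in the second Mb and 4 of 5 in the rest, numbers too small for a trend. Without TBK1-DKO 2 and WT 1, 26 were called. In the second Mb the called genes were mostly lower: Vangl2 (planar cell polarity) by a log2 fold change of -0.38, Copa (a coatomer subunit) by -0.30, the potassium channel genes Kcnj9 by -0.61 and Kcnj10 by -0.34, and the phosphatase gene Dusp23 by -1.01 (adjusted p 0.001 to 0.043 by edgeR). Igsf9, an immunoglobulin superfamily gene, fell to 6.91 ± 0.357 CPM in TBK1-DKO, against 13.4 ± 0.917 CPM in WT (log2 fold change -0.95, adjusted p = 4.4e-05 by edgeR). Vsig8, of the same superfamily, rose on few reads, 49 in TBK1-DKO and 7 in WT over the 3 libraries (log2 fold change 2.31, adjusted p = 0.0035).

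Darc, just before the PYHIN cluster, a chemokine-binding receptor of red cells and endothelium now named Ackr1, rose to 15.1 ± 0.777 CPM in TBK1-DKO, against 8.16 ± 0.352 CPM in WT (log2 fold change 0.89, adjusted p = 3.7e-05 by edgeR). Of the erythroid marker list, all 10 tested genes were called higher in TBK1-DKO, against 13.7% of all genes tested. Summed levels of the list were 3687 to 3980 CPM in TBK1-DKO and 2116 to 2404 CPM in WT, while Hba-a2 was at 0 and Hba-a1 under 0.1 CPM. The part of erythroid cells in the values of Darc, Olfr433 and Olfr432 was not tested. Of the odorant receptor genes after Olfr432, none of which passed the filter, Olfr419 had 42 reads in TBK1-DKO and 7 in WT, Olfr414 had 21 in TBK1-DKO and 2 in WT, and Olfr420 had 5 in TBK1-DKO and 11 in WT, in groups whose depth differed 1.37-fold. These 3 were picked after their values were seen. The formin gene Fmn2 fell, with 22 reads in TBK1-DKO and 45 in WT (log2 fold change -1.46, adjusted p = 0.019).

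**Figure D4:**
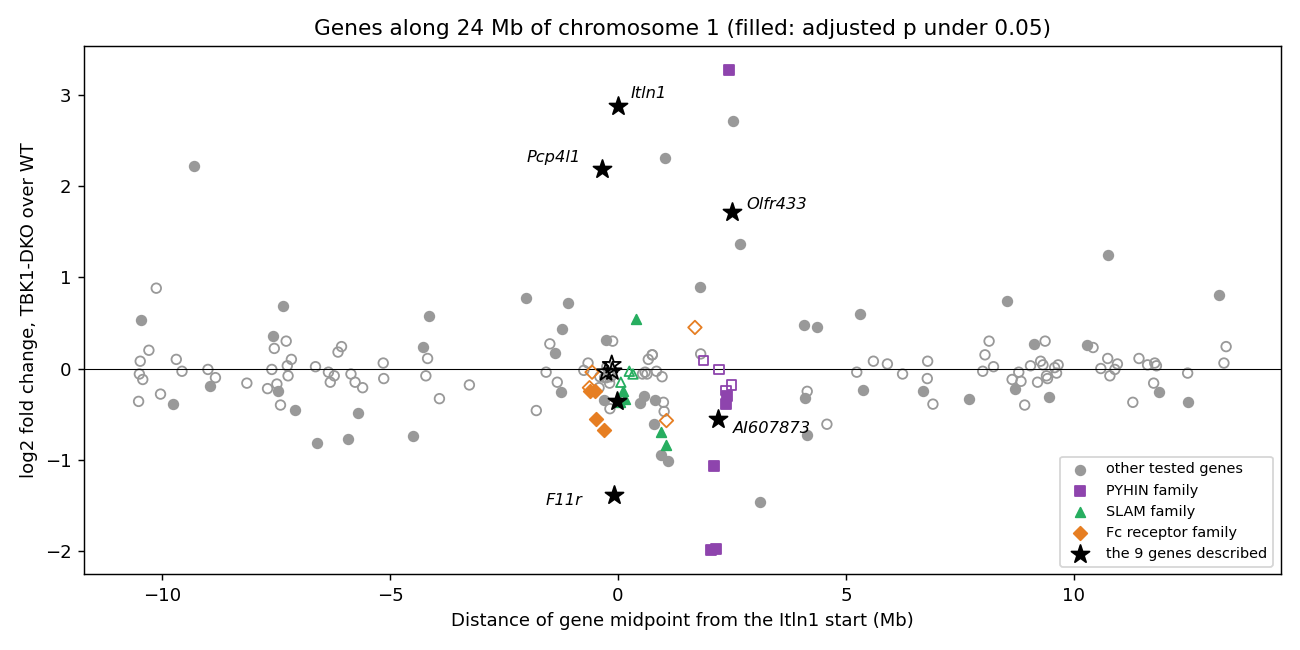
Log2 fold change of TBK1-DKO over WT (y axis) against the distance of each tested gene's midpoint from the Itln1 start in Mb (x axis), with the 9 genes as stars, the 3 families in colour and filled symbols where the adjusted p was under 0.05. Called differences of at least 2-fold number 13 within the 4-Mb stretch and 1 in each flank of 10 Mb.

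Differences of at least 2-fold were more frequent in this stretch than in its flanks, but the count rests in part on genes chosen for them. The stretch itself was looked at after earlier results of these data had shown changes here. Its shares are therefore a description, also for the genes taken by position. Of all genes tested, 3.18% were called with at least 2-fold. Of the whole stretch, 13 of 68 tested genes were called with at least 2-fold, of which 4 are among the 9 genes, 4 are other PYHIN genes and 5 are further genes. The 10 Mb before the stretch had 1 such gene of 64 (1.56%), the 10 Mb after it had 1 of 59 (1.69%), and the rest of chromosome 1 had 27 of 667 (4.05%). Among the 35 further genes alone it was 5 (14.3%). Calls of any size numbered 34 of 68 genes (50%) in the stretch, 20 of 64 (31.2%) before it, 17 of 59 (28.8%) after it and 160 of 667 (24%) on the rest of the chromosome. The count before it was 13 without TBK1-DKO 3 and 12 without WT 2, and the count after it was 11 without TBK1-DKO 1. The 3 nearest called genes before the stretch were Fcrla with a log2 fold change of -0.25, Nos1ap with 0.72 and Gm7694 with 0.43, and the 3 nearest after it were Fh1 with 0.48, Kmo with -0.32 and Opn3 with -0.73 (adjusted p 0.00018 to 0.014 by edgeR).

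Relatives of the 9 genes elsewhere in the genome are given beside the 23.6% of all tested genes that were called, 13.7% as higher and 9.90% as lower. Of 26 tested partners of JAM-A in junctions and leukocyte adhesion, 5 were higher and 3 lower in TBK1-DKO (30.8% called), with a median log2 fold change of -0.11. Cldn1, a tight junction claudin, rose to 5.29 ± 0.343 CPM in TBK1-DKO, against 2.5 ± 0.245 CPM in WT (log2 fold change 1.09, adjusted p = 1.1e-04 by edgeR). Esam, an endothelial and dendritic cell adhesion gene, rose as well (19.9 ± 1.02 CPM in TBK1-DKO and 11.8 ± 1.29 CPM in WT, adjusted p = 2.8e-04), and the integrin gene Itgb3 fell by 0.40 on the log2 scale (adjusted p = 0.0023). The other JAM genes were low and not called, Jam2 with a log2 fold change of 1.08 (adjusted p = 0.071) and Jam3 with 0.32 (adjusted p = 0.51).

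For the other lists, 3 of 20 galactosyltransferase genes were higher and 3 lower (30% called), and B4galt1, the best known relative of B4galt3, had 126 ± 2.26 CPM in TBK1-DKO and 126 ± 3.37 CPM in WT. Of 19 USF and other E-box factors, 3 were higher and 1 lower (21.1% called). The MAX partners Mxd3 (log2 fold change 0.76, adjusted p = 5.5e-04 by edgeR) and Mxd1 (0.35, adjusted p = 7.4e-04) rose, and Usf2, the partner of Usf1, had 0.06 (adjusted p = 0.57). Of 17 mRNA export genes, 1 was called (5.88%), Alyref, at 61 ± 3.54 CPM in TBK1-DKO and 53.3 ± 1.04 CPM in WT (log2 fold change 0.20, adjusted p = 0.038), the other direction from Alyref2. Of 15 calmodulin-related genes, 4 were higher, among them Camk2b (0.80) and Nrgn (0.61), and 5 lower (60% called). The median log2 fold changes of these 4 lists lay between -0.10 and 0.13, and that of the whole table was 0.00.

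Across the 6 libraries, the genes most like F11r among 12670 genes with a mean of at least 1 CPM were Psca (Pearson r = 0.9990), Abcc3 (0.9988) and Egr1 (0.9986). Those most like Itln1 were Ltf (0.9998) and Ngp (0.9997), both genes of neutrophil granules, and Bcl2l1 (0.9992). These values are a description over 6 points that share the difference between the groups, which sets most of each r. The marker lists that follow count called genes, beside 13.7% of all genes tested called as higher and 9.90% as lower. Of the neutrophil marker list, 13 of 14 tested genes were higher in TBK1-DKO and none was at 0. Its summed levels were 6342 to 7258 CPM in TBK1-DKO and 2667 to 2985 CPM in WT. Its part in the level of Itln1 was not tested. F11r is also expressed by platelets, epithelium and endothelium. For 12 platelet genes (8 higher, 2 lower, none at 0), summed levels were 98.4 to 106 CPM in TBK1-DKO and 103 to 113 CPM in WT. The 2 lower genes made up most of these sums, so the sums do not show the 8 that rose. Itgb3 had 42.1 to 49.8 CPM in TBK1-DKO and 58.3 to 63.7 CPM in WT. Clec1b had 15.1 to 17 CPM in TBK1-DKO and 20.5 to 24.9 CPM in WT. The median log2 fold change of the 12 genes was 0.72. Summed levels were 22 to 23.2 CPM in TBK1-DKO and 25.4 to 27.4 CPM in WT for epithelial and mesothelial genes (0 higher and 1 lower of 5 tested, with Krt14 at 0 and Krt19, Upk3b and Krt5 under 0.1 CPM). For endothelial and stromal genes they were 294 to 309 CPM in TBK1-DKO and 366 to 397 CPM in WT (2 higher and 4 lower of 13 tested, none at 0, Emcn under 0.1 CPM). Of 11 tested macrophage genes, 0 were higher and 9 lower, none was at 0, and summed levels were 3889 to 4282 CPM in TBK1-DKO and 5459 to 5999 CPM in WT. Of the lymphocyte lists, 4 of 8 B cell genes, 6 of 9 T cell genes and 7 of 8 NK cell genes were lower and 0 were higher. The plasma cell list went the other way, with 7 of 8 tested genes higher and 0 lower. Its summed levels were 2160 to 2327 CPM in TBK1-DKO and 1396 to 1579 CPM in WT. The part of these cells in the level of F11r was not tested.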

How the data were processed

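RNA-seq of splenic dendritic cells was deposited as whole-number read counts per gene symbol, per library, unscaled and not pooled. The tools named in the submitters' processing notes are HTSeq, DESeq2, TopHat and TopHat2, and the build is mm10. Their versions, the strand setting and the annotation counted on were not given in the sources used here. Records that name no gene (9.96% to 10.7% in TBK1-DKO and 8.20% to 8.67% in WT) were left out. The test was that of edgeR 4.0.16 (R 4.3.3): filterByExpr with a minimum count of 10 left 14388 genes, libraries were scaled by TMM, and groups were compared with the robust quasi-likelihood test without covariates. Benjamini-Hochberg adjusted p-values run over all genes tested. CPM and RPKM use the total of gene reads and the exon length in GENCODE M21 (GRCm38). Of the 23420 symbols, 21777 matched GENCODE directly, 1295 by a synonym and 210 through RefSeq. Genes were placed by their midpoint. Errors are SD over 3 libraries a group, and intervals are 95%.

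The 9 genes, the lists and the rule for naming genes were chosen with earlier results of these data known. The rule names the 9 genes, called genes of the stretch outside the 3 families, nearest neighbours, called genes next to its edges, the 3 relatives per list with the smallest p and the closest paralogs, and the 3 most alike genes. The text prints part of these, and a few genes and 1 list are not reported here. Scripts were tested on simulated counts. Alternatives included DESeq2 1.42.0, limma-voom (limma 3.58.1), other scalings and filters, a replicate block, left-out libraries and offsets for length and GC content. Figures were drawn with matplotlib 3.10.9.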

Additional observations from a re-analysis of the deposited data

How the results depend on the processing

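Over 16 alternatives the log2 fold changes of the 9 genes kept their sign, at -1.40 to -1.38 for F11r, 2.67 to 3.04 for Itln1, 2.01 to 2.41 for Pcp4l1 and 1.61 to 1.91 for Olfr433. Alyref2 missed the threshold without TBK1-DKO 3 and without WT 2. With TBK1-DKO 2 and WT 1 both left out, 6897 genes of the whole table were called in place of 3402 (3500 higher and 3397 lower, against 1978 and 1424), 26 in place of 13 in the 4-Mb stretch outside the 9 genes and the 3 families, 31 in place of 20 in the 10 Mb before it and 32 in place of 17 in the 10 Mb after it; the cause was not tested. Leaving out 1 library at a time gave 2308 to 4352 calls in the whole table, 12 to 22 in the 10 Mb before the stretch and 11 to 19 in the 10 Mb after it. Same-numbered libraries deviated together with r = 0.334, 0.285 and -0.141, and libraries of different number with r from -0.359 to 0.26. With 3 libraries a group, and TBK1-DKO 2 and WT 1 apart, these values do not decide whether the numbers pair the libraries. A replicate block gave 4086, 14, 24 and 20 calls in the whole table, the stretch and its flanks. Other scalings, filters and tests, and offsets for length and GC content, moved no count by over 1.5 times. Lengths of the longest transcript in place of all exons gave Arhgap30 119 RPKM and B4galt3 14.3 RPKM in WT. Depth limits Pcp4l1, with 11 to 17 reads per WT library.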
